A study of Mus musculus with 6 samples.

Results

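Atf1, Atf2, Atf3, Atf5, Atf7, Creb1 and Crem encode basic leucine zipper factors of the ATF and CREB families, and Crtc2 and Crtc3 encode coactivators of CREB. These 9 genes, of 21911 protein-coding genes annotated on chromosomes 1 to 19, X and Y, were taken as a named list, and acetylation of histone H3 at lysine 27 (H3K27ac) was read over each gene and 10 kb on each side. Overlapping peaks of the 4 H3K27ac libraries were joined into regions, and 108 of the 182956 regions lay in these windows. The cells were B16 F10, an established mouse melanoma line that makes melanin. They were seeded at 100 cells per cm2, taken at day 5, when pigment builds up in this culture model, and sorted by side scatter into a low pigment (LP) and a high pigment (HP) population of the same culture, with 2 replicates each. The labels name no genetic change and no added agent in either population. Both populations come from a single line, and nothing in the labels says that the replicates were separate cultures. The p-values therefore rest only on the spread between these samples, pooled over all regions tested. The comparison between HP and LP asks whether the chromatin of these genes differs between pigment states that share a culture.

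Library totals were 11467942 and 15353176 fragments (LP), against 11483830 and 14254904 (HP). Levels are given as the scaled pileup, which is the number of fragments over the highest base of a region (its summit) scaled to 1000000 fragments per library. The scaled pileup is not summed over the length of a region, but a region with more than 1 peak takes the highest summit. It is also not corrected for the local background, which limits comparisons between genes. It is a population measure: fewer cells with the mark and less of the mark per cell cannot be told apart. The labelled cell type is melanocytes, and 7 of 8 promoters of melanocyte genes (Mitf, Tyr, Tyrp1, Dct, Pmel, Mlana, Sox10) carried a region in all 4 libraries; the other one, Slc45a2, did so in 3. Of 4 keratinocyte, 4 fibroblast and 4 immune promoters, 0 did so in all 4, and the fibroblast gene Col1a1 had a region in 3. Over the 12084 regions called in all 4 libraries HP stood above LP by a median log2 ratio of 0.92, that is 0.57 in replicate 1 and 1.30 in replicate 2.

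CREB, ATF1 and CREM bind the cAMP response element (CRE) as dimers and are switched on when protein kinase A phosphorylates them. In melanocytes this is the route by which melanocortin signalling through cAMP raises Mitf, the regulator of pigment genes. ATF2 and ATF7 bind similar elements and answer to stress kinases, ATF3 is an early stress-induced repressor, and ATF5 belongs to the stress response that ATF4 leads. The CRTC proteins enter the nucleus when cAMP rises and bind CREB, and salt-inducible kinases hold them in the cytoplasm. H3K27ac itself is placed by CBP and p300 at active promoters and enhancers.

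The letters of the promoters come first, since these factors bind the CRE and can act on their own genes. RefSeq promoter windows (250 bases before to 50 after a start, GRCm38.p6) were held for 7 of the 9 genes, in 8 windows; Crem and Crtc2 were not among them. On both strands, the full CRE TGACGTCA stood in none of the 7 genes' windows and in 2.23% of 21262 protein-coding promoters. The CRE core, TGACG or CGTCA, stood in those of Atf1 and Atf3 (23.6% of promoters), and the E-box CACGTG, the letters that MITF can bind, in those of Atf1 and Atf7 (7.84%). The AP-1 letters TGANTCA (6.99%) and the M-box core TCATGTG (2.99%) stood in none of the 7. A full CRE also holds the core, and the other motifs do not overlap it by construction. The 3 promoters with a match are shown 5′ to 3′ on the strand of the gene, with the matched letters in capitals; they were chosen after the matches were seen. In Atf1 (chr15:100227609-100227908, + strand) the E-box begins 105 bases and the CRE core 90 bases before the start. In Atf3 (chr1:191183284-191183583, − strand) the CRE core begins 7 bases before the start, and in Atf7 (chr15:102625415-102625714, − strand) the E-box begins 147 bases before it.
Atf1 promoter: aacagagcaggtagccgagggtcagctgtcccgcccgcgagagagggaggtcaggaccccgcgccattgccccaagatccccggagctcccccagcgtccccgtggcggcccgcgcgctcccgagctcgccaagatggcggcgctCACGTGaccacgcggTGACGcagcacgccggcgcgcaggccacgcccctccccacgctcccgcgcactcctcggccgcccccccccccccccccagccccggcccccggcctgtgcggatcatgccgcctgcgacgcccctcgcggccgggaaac
Atf3 promoter: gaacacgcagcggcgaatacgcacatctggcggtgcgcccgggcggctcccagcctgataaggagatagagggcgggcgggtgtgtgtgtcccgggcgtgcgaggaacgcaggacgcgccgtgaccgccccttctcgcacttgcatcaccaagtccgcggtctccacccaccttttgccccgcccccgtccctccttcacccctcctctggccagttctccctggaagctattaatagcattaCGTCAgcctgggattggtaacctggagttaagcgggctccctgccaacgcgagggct
Atf7 promoter: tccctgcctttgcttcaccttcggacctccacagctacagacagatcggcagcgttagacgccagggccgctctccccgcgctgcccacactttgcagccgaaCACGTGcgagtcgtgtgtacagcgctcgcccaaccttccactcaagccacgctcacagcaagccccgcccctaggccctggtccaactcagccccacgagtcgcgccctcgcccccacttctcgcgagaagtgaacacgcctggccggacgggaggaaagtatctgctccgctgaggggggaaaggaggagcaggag
Of these letters, 77.3% in Atf1, 64.7% in Atf3 and 65.0% in Atf7 are G or C, with 40, 27 and 25 CpG, against a median of 56.3% and 13 CpG over the protein-coding promoters. A match is a description of the letters and does not show that a factor was bound.

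All 9 genes had a promoter region called in all 4 libraries, as had 9832 of the 21911 protein-coding genes (44.9%). A promoter region overlaps 1 kb on either side of a transcription start site (TSS) of the gene. Where a gene has several, the one of highest mean scaled pileup is described. The 9832 promoters are counted by gene, so a region shared by neighbouring genes enters for each of them. None of the 9 promoters passed the limma test between HP and LP at an adjusted p of 0.05; over all regions called in all 4 libraries, 485 of 12084 (4.01%) did, all of them higher in HP, and 2.54% of the 9832 promoters. The log2 ratio was above 0 in 9 of 9, from 0.10 at Atf1, where the arithmetic means go the other way, to 1.32 at Atf7. Each had a standard error of 0.54, because limma pooled the variance over the 12084 regions. The p-values and intervals below therefore do not follow the spread of the single gene. The median log2 ratio of the 9 was 0.60, against 0.90 over the 9832 promoters. The sign depends on the scaling: where each library was centred on its median, which lowered every log2 ratio by 1.01, 8 of the 9 fell below 0 and Atf7 stayed above, and after quantile normalization 5 of the 9 were below 0. With 2 samples against 2 an exact permutation test cannot give a two-sided p below 0.33.

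**Figure D1:**
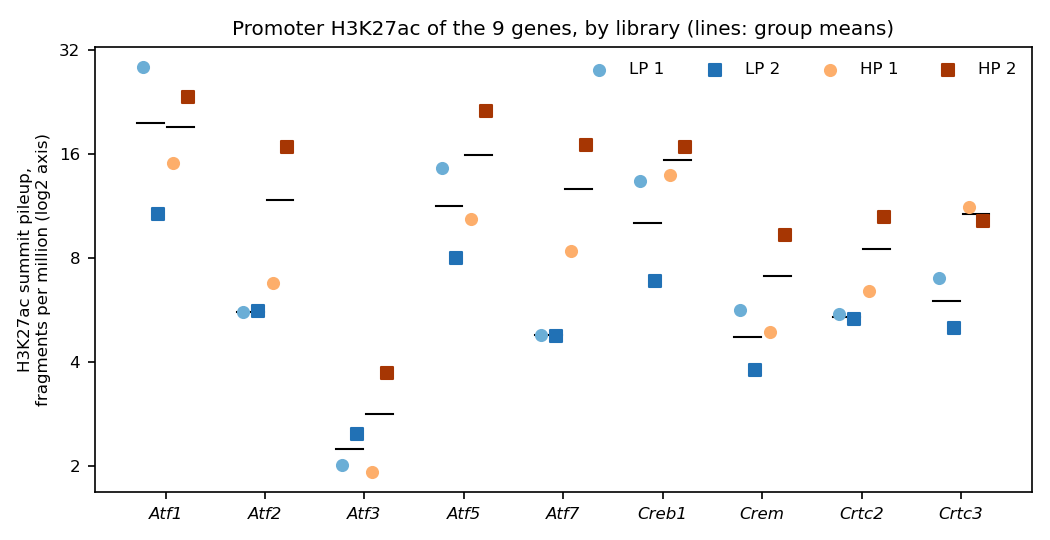
Scaled summit pileup of the main promoter region of each of the 9 genes (fragments per 1000000, log2 axis), with one point per library (LP 1, LP 2, HP 1, HP 2) and a line at the mean of each population. HP 2 is the highest point at 7 genes (88.2% of the 9832 promoters), LP 1 at Atf1 (1.37%) and HP 1 at Crtc3. Both HP points lie above both LP points at 5 genes (73.8% of the 9832 promoters).

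Creb1 encodes CREB itself, the factor after which the response is named. Its promoter region (chr1:64531680-64534388, reaching into intron 1) reached 13.4 and 6.84 (LP), against 13.9 and 16.8 (HP), that is 10.1 ± 4.66 against 15.3 ± 2.00 (mean ± SD, n = 2 each). Both HP libraries were above both LP libraries, but HP 1 was only just above LP 1. The log2 ratio was 0.67 (95% interval −0.39 to 1.74, limma adjusted p = 0.288), and it was 0.05 in replicate 1 and 1.29 in replicate 2, 1.16 without LP 1 and 0.19 without LP 2.

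Atf1, the closest relative of Creb1, had the highest promoter of the set, at percentile 99.3 of the 9832 promoters. Its region (chr15:100226161-100229571, around exon 1) had 28.5 and 10.7 (LP), against 15.1 and 23.3 (HP). The populations overlapped entirely, with both HP values between the LP values. The means were 19.6 ± 12.6 in LP and 19.2 ± 5.82 in HP, so the arithmetic mean was lower in HP while the log2 ratio, a difference of mean logs, was 0.10 (interval −0.97 to 1.16, adjusted p = 0.866). With the mean of the summits of a region in place of its highest summit, the ratio of Atf1 was 1.01, above those of 7 of the other 8 genes. That mean takes in a second, low peak in each LP library (1.05 in LP 1 and 0.912 in LP 2). Each HP library had a single peak, so only the LP values were lowered by it. In replicate 1 the ratio was −0.92 and in replicate 2 it was 1.12, so the replicates pointed in opposite directions.

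Crem encodes activator and repressor forms, among them the short inducible repressor ICER, which is made from an internal start. Its main promoter region (chr18:3336617-3338660), which also covers the start of the noncoding Gm6225, had 5.67 and 3.78 (LP), against 4.88 and 9.33 (HP). LP 1 stood above HP 1, so the populations overlapped. Crem gave a log2 ratio of 0.54 (interval −0.52 to 1.61, adjusted p = 0.374). Of the other annotated starts of Crem, those 55.7 to 56.4 kb into the gene had only single-library peaks near them, one of 15 fragments in HP 2 (scaled pileup 1.05) and one of 8 fragments in LP 1 (scaled pileup 0.698). Which of the annotated starts gives ICER was not assigned here.

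Atf2 and Atf7 are close paralogues with a stress kinase site in their activation domain, and with all 4 libraries and the highest summits their promoters had the highest log2 ratios of the 9. This order did not hold throughout: without HP 2, Crtc3 was at 0.93, Atf7 at 0.81 and Atf2 at 0.28, and without LP 1, Creb1 (1.16) and Crtc3 (1.09) were above Atf2 (0.93). Atf7 (chr15:102624343-102626221) had 4.80 and 4.75 (LP), against 8.36 and 17.0 (HP). The LP libraries were almost equal, both HP libraries were higher, and HP 2 stood well above HP 1. The log2 ratio was 1.32 (interval 0.26 to 2.39), with an unadjusted p of 0.0149 and an adjusted p of 0.0921 by limma; 36.2% of all regions had an unadjusted p below 0.05. The readthrough transcript Gm28047 starts inside the same region, so its acetylation cannot be told apart from that of Atf7.

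Atf2 (chr2:73891688-73892659) had 5.58 and 5.60 in LP, 6.79 in HP 1 and 16.7 in HP 2. The populations did not overlap, and most of the difference lay in HP 2. Atf2 gave a log2 ratio of 0.93 (interval −0.13 to 1.99, adjusted p = 0.176), close to the median of all promoters. The noncoding Gm10822 starts 382 bp upstream of Atf2, on the other strand. A region near both starts (chr2:73892717-73893298) was called in LP 1 at 2.18 and in HP 2 at 3.86. Farther upstream, a region (chr2:73893509-73894167) was called in LP 2, HP 1 and HP 2 at 0.716, 0.958 and 0.421. Of the bases around the summit of this farther region, 80.6% are masked as repeats in the genome file.

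When HP 1 was left out of the limma fit, the log2 ratio was 1.58 at the Atf2 promoter and 1.84 at the Atf7 promoter. The spread in that fit comes from the 2 LP libraries alone, and HP 2, the only HP library in it, is assumed to vary like them. Fits without LP 1, LP 2 or HP 2 likewise take their spread from the remaining pair.

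Atf3 is induced within minutes to hours by stress and by cAMP, and it had the lowest promoter of the 9, at percentile 12.3. Its region (chr1:191182025-191183278), which lies just inside intron 1 of the internal transcript, had 2.01 and 2.48 (LP), against 1.92 and 3.72 (HP). HP 1 was the lowest of the 4 values, so the populations overlapped. Atf3 gave a log2 ratio of 0.26 (interval −0.80 to 1.32, adjusted p = 0.655), at percentile 2.89 of the ratios of all promoters. The promoter letters shown above lie just upstream of this region, and a further region (chr1:191183482-191184406), which covers only their outer part and not the CRE core, was called in LP 2 at 0.586 and in HP 2 at 0.842. This is the start at position 191183340; the distal start, 34.7 kb upstream at 191218039, had no called region within 1 kb in any of the 4 libraries.

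Atf5, a factor with roles in survival and in the stress response of mitochondria, had a promoter at percentile 96.1. Its region (chr7:44815653-44819826) had 14.6 and 8.01 (LP), against 10.4 and 21.3 (HP), so LP 1 stood above HP 1. The log2 ratio was 0.46 (interval −0.61 to 1.52, adjusted p = 0.446), with −0.49 in replicate 1 and 1.41 in replicate 2. The region also covers starts of Nup62, a nuclear pore protein, and Il4i1, an amino acid oxidase, which are transcribed in the other direction and start 275 and 262 bp from that of Atf5, so the values belong to all of them together.

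The coactivators came next. Crtc3 is a family member that has been tied to pigmentation by melanocytes. Its promoter region (chr7:80687858-80689539, around exon 1) had 6.98 and 5.02 (LP), against 11.2 and 10.2 (HP). It was the only one of the 9 at which HP 1 was the highest library and HP 1 and HP 2 lay close together (10.7 ± 0.750). The populations did not overlap, and the ratio was similar in both replicates, 0.69 and 1.02. For Crtc3 the log2 ratio was 0.85 (interval −0.21 to 1.92, adjusted p = 0.204).

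Crtc2 (chr3:90253626-90255365, around exon 1), the main CREB coactivator of the liver, had 5.49 and 5.34 (LP), against 6.44 and 10.5 (HP). The populations did not overlap, and HP 1 was close to LP. For Crtc2 the log2 ratio was 0.60 (interval −0.46 to 1.67, adjusted p = 0.332), and it was 0.25 without HP 2 and 0.96 without HP 1. The authors' fold enrichment at its summit was 6.88 in HP 1 and 32.3 in HP 2, with a local background of 9.90 and 3.68 fragments, so the background that MACS set at this promoter differed between replicates as well.

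Across the 9 promoters the values were ordered Atf1, Atf5, Creb1, Atf7, Atf2, Crtc3, Crtc2, Crem and Atf3 by the mean over all 4 libraries, LP and HP pooled. In LP alone the mean of Atf7, 4.78, was below those of Crtc3, Atf2 (5.59) and Crtc2 (5.42). Neighbours in this order overlapped in their ranges over the 4 libraries, except that Crem, whose lowest value was 3.78, stood just above Atf3, whose highest value was 3.72. Both HP libraries were above both LP libraries at 5 of the 9 (Atf2, Atf7, Creb1, Crtc2, Crtc3), and at 7253 of the 9832 promoters (73.8%, and 74.8% of all regions). Replicate 2 gave a ratio above 0 at 9 of 9 (99.3% of all promoters), with a median of 1.29 against 1.31. Replicate 1 gave a ratio above 0 at 5 of 9 (80.3% of all promoters), with a median of 0.05 against 0.50. The median log2 ratio of LP 2 over LP 1 was −0.48 at the 9 and −0.13 over all promoters, and that of HP 2 over HP 1 was 0.94 and 0.71.

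**Figure D2:**
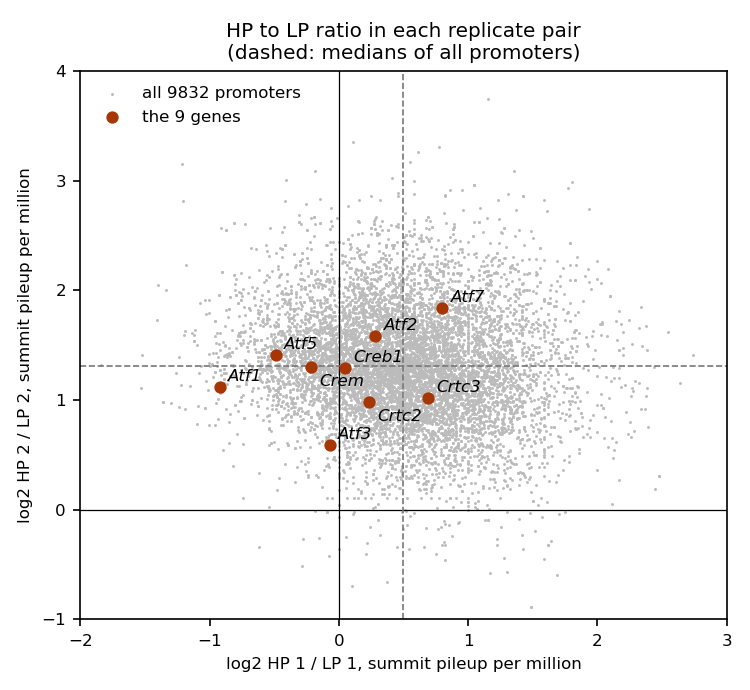
log2 ratio of HP to LP in replicate 1 (x axis) and replicate 2 (y axis), from summit pileups per 1000000 fragments, for 9832 protein-coding promoters (grey, 1 outside the range drawn) and the 9 genes (labelled). All 9 lie above 0 on the y axis, while Atf1, Atf3, Atf5 and Crem lie below 0 on the x axis.

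The ratios in replicate 1 were lowest among the strongest promoters. Among the 983 promoters in the highest 10% by mean scaled pileup, 57.6% were lower in HP 1 than in LP 1, with a median log2 ratio of −0.09, against 15.3% and 0.55 in the middle 80%. For the lowest 10% those values were 16.8% and 0.65, near those of the middle 80%. In replicate 2 the median was 1.32 in the highest 10% and in the middle 80%, and 1.14 in the lowest 10%. Atf1, Atf5 and Creb1 belong to the highest 10%, and their replicate 1 ratios were −0.92, −0.49 and 0.05. In that class 0 promoters passed limma at an adjusted p of 0.05, and both HP libraries stood above both LP libraries at 41.8%. The level that defines these classes was measured in the same libraries, so these values are a description. The part of signal strength in the ratios of the 3 genes was not tested.

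**Figure D3:**
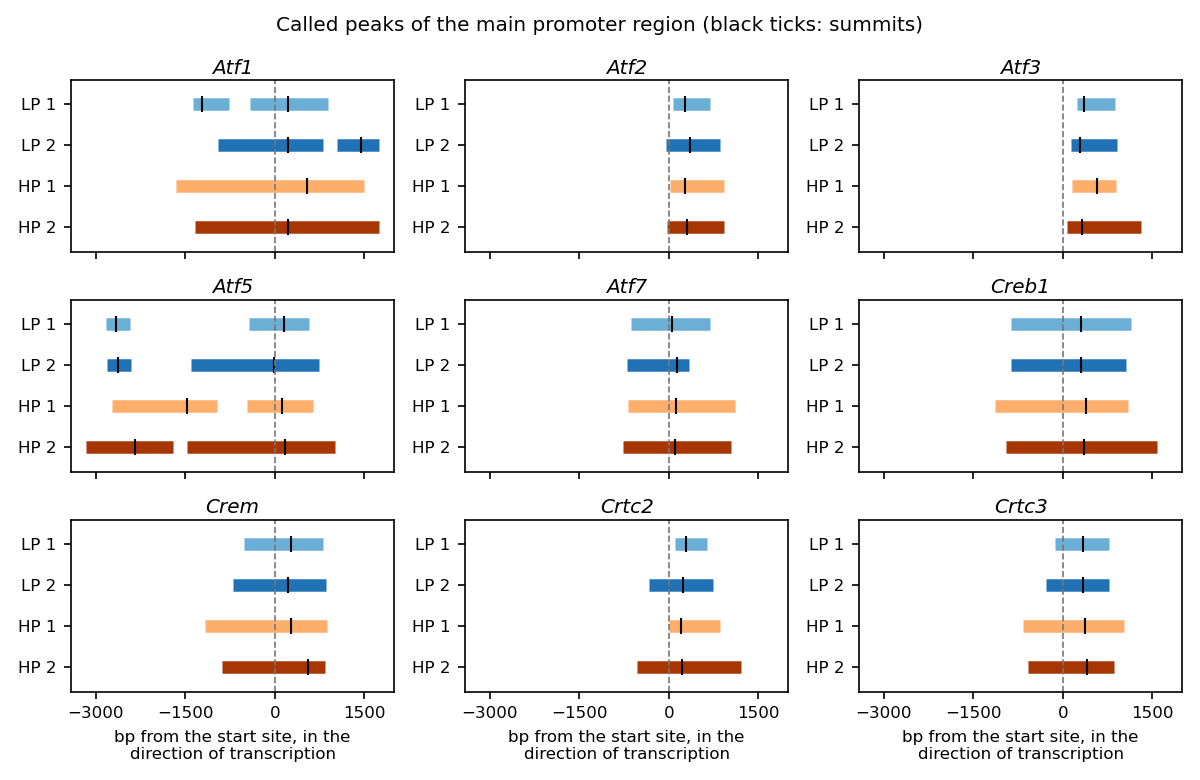
Called peaks of the main promoter region of each gene in the 4 libraries, by distance in bp from the start site in the direction of transcription; bars span the peaks, black ticks mark summits and the dashed line marks the start. The summits lie downstream of the start in nearly every panel, and Atf1 and Atf5 have more than one peak in some libraries.

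The shape of the signal was alike at most genes. The highest summit lay downstream of the start in 35 of 36 gene and library pairs, at a median of 276.5 bp and a range of −21 to 575 bp. Among the peaks that held this summit in LP 1, that at Creb1 was the widest (2013 bp) and that at Crtc2 the narrowest (537 bp). At Atf1, LP 1 and LP 2 had 2 peaks each, where HP 1 and HP 2 each had a single peak of 3150 and 3080 bp.

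The windows also held promoters of other genes, which were called in all 4 libraries at 5 regions. Downstream of Atf7, the region at the starts of Map3k12, a kinase upstream of JNK, and Tarbp2, a Dicer cofactor (chr15:102516358-102517911), had 1.57 and 1.69 (LP), against 4.44 and 4.49 (HP). The replicates agreed closely and the populations did not overlap, with a log2 ratio of 1.45 (adjusted p = 0.0741, limma). The next region, at other starts of Tarbp2 (chr15:102518085-102520885), had 4.97, 4.69, 7.14 and 16.9 in LP 1, LP 2, HP 1 and HP 2, a pattern like that of Atf7. At Slc39a1, a zinc transporter upstream of Crtc2, the values were 4.01, 2.21, 3.74 and 11.8, and at Dennd4b, downstream of Crtc2, they were 9.85, 4.30, 10.4 and 13.7. At the noncoding D730003I15Rik, upstream of Atf3, they were 8.81, 5.93, 8.36 and 13.4, so the promoter of this neighbour was higher than that of Atf3 in all 4 libraries. The log2 ratios of the last 4 were 1.19, 1.16, 0.87 and 0.55, with adjusted p from 0.114 to 0.369. Leaving out 1 library moved each: without HP 2 the ratio was 0.56 at Tarbp2, 0.33 at Slc39a1 and 0.21 at D730003I15Rik, and at Dennd4b it was 0.27 without LP 2 and 1.47 without LP 1.

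Away from any annotated start the windows held 80 regions, here called elements. None was called in all 4 libraries, as 1.57% of such regions of the genome were, and 69 (86.2%) were called in a single library, as were 87.8% of those 153700 regions. These 69 rested on 5 to 17 fragments at the summit, with a median of 8. Scaled pileups of elements ran from 0.391 to 2.10, whereas the median of the 9 promoters was 5.67 and 5.34 (LP), against 8.36 and 16.7 (HP). LP 1 shared few elements with the rest: 1 of its 15 was called in another library, against 7 of 30 in LP 2, 7 of 22 in HP 1 and 9 of 26 in HP 2. For all such regions of the genome those shares were 12.3%, 23.3%, 33.5% and 32.7%.

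**Figure D4:**
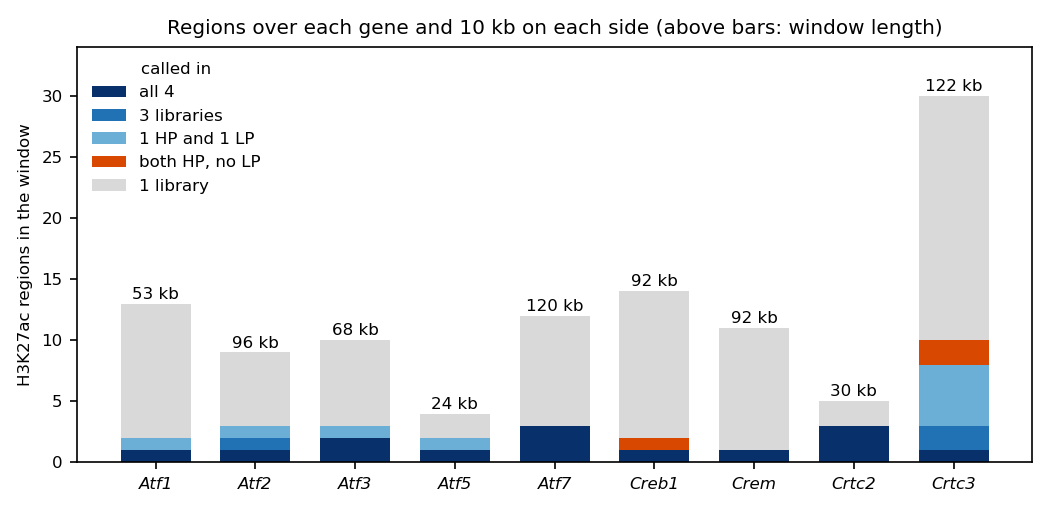
Number of H3K27ac regions over each gene and 10 kb on each side, stacked by the libraries in which they were called, with the window length above each bar. Crtc3 has 30 regions and most of those called in 2 or 3 libraries, and single-library regions (grey) make up the larger part of most bars.

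Crtc3 held most of the elements seen more than once. Its window of 122 kb is 17.5% of the total length and had 27 of the 80 elements (33.8%), and 9 of the 11 called in 2 or more libraries. That is 7.36 such elements per 100 kb, at percentile 96.7 of protein-coding windows, whose median is 0. Crtc2, by contrast, had 0 elements in its window of 30.0 kb, and its regions were promoters of itself and its neighbours. Of the 9 repeated elements of Crtc3, 5 lay in intron 2. They were called in 1 case in LP 1, 6 in LP 2, 6 in HP 1 and 7 in HP 2. The highest was at exon 15 (chr7:80587378-80588276), 101 kb into the gene, with no call in LP 1 and 0.586 in LP 2, 1.39 in HP 1 and 2.10 in HP 2. Another, just downstream of the gene (chr7:80582557-80583155), had 0.716 in LP 2, 1.22 in HP 1 and 1.05 in HP 2.

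Of all 108 regions, 3 (2.78%) were called in both HP libraries and neither LP library, against 3.94% of all regions and 3.80% of those away from a start. None was called in both LP libraries and neither HP library (0.249% of all regions). The 3 were elements, 2 in intron 2 of Crtc3 and 1 in the gene body of Creb1, past the end of its principal annotated transcript. At least 1 such region lay in the windows of 2 of the 9 genes (20.7% of protein-coding genes), and at least 2 lay in that of Crtc3 (6.79% of genes and 14.5% of the 1400 windows of 100 to 150 kb). Within replicate pairs the counts were more even: 25 and 24 regions were called in HP and not in the LP library of the same number, and 17 and 26 in LP and not in HP. Over all regions of the genome the counts were 44974 and 48165, and 41234 and 41012. A list holds only what passed the authors' cutoff, so the LP level under these elements is not known beyond that it was not called.

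The intron 2 element nearest the Crtc3 promoter (chr7:80674853-80675547), 13.7 kb from the start, had 12 fragments in HP 1 and 21 in HP 2, a scaled pileup of 1.04 and 1.47, with a −log10 q-value of 5.98 and 14.3. A region called in LP 2 and HP 2, at a scaled pileup of 1.17 and 1.47, lies next to it on the side away from the promoter (chr7:80673503-80674500). The other intron 2 element (chr7:80638155-80638513), 50.5 kb from the start, had 9 and 14 fragments (scaled pileups 0.784 and 0.982), with a −log10 q-value of 2.32 and 4.86. The Creb1 element (chr1:64601672-64602043), 69.0 kb from the start, had 6 and 7 fragments (scaled pileups 0.522 and 0.491), with a −log10 q-value of 2.55 and 2.88. The lowest summit called in any list was 5 fragments in LP 1, HP 1 and HP 2 and 6 in LP 2, so the Creb1 element stood near the limit of the calls. The cause of its absence from the LP lists was not tested.

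**Figure D5:**
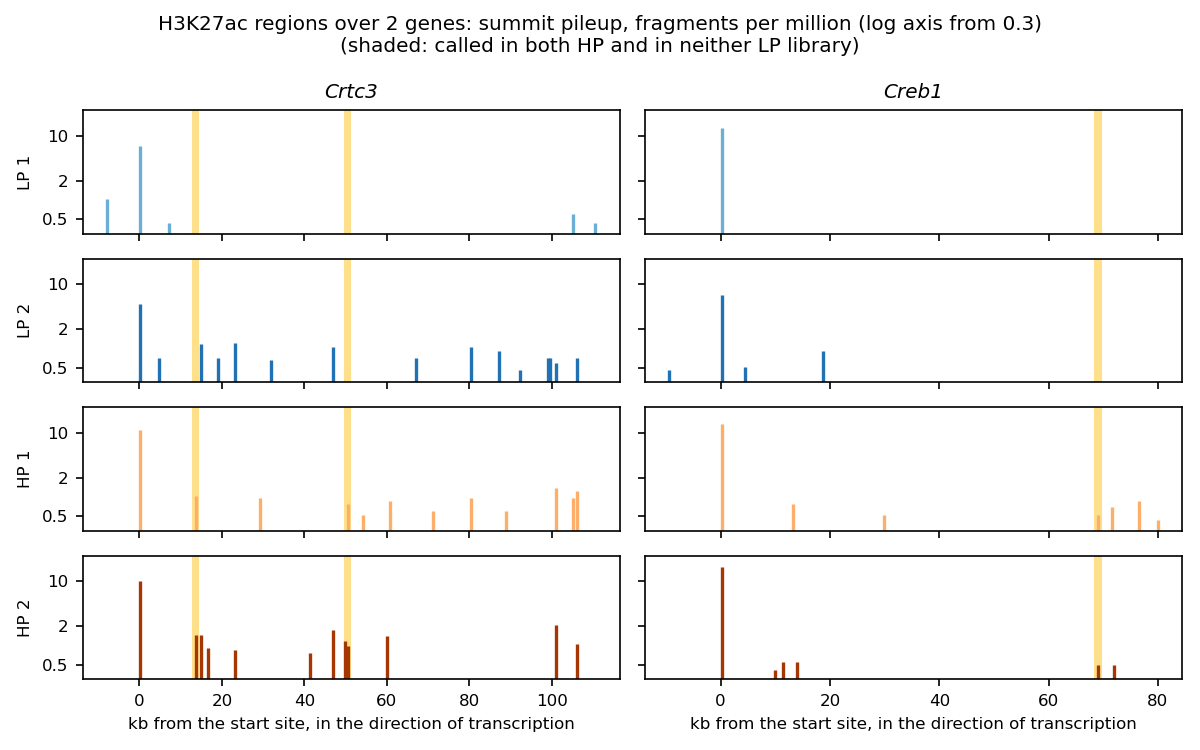
Scaled summit pileup (fragments per 1000000, log axis from 0.3) of every region over Crtc3 (left) and Creb1 (right) and 10 kb on each side, by distance in kb from the start site, with one row per library. Shading marks the elements called in both HP and neither LP library, at 13.7 and 50.5 kb in Crtc3 and 69.0 kb in Creb1; all elements lie well under the promoter at 0.

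These 3 elements are the only regions at the 9 genes called in both libraries of one population and in neither of the other. Shown for each, on the + strand of GRCm38, are the higher summit and 100 bases on either side. Matches to the motifs above are in capitals. The 3 elements were chosen after their values were seen. The Crtc3 elements are at chr7:80674897-80675097 and chr7:80638218-80638418, in this order, and the Creb1 element is at chr1:64601610-64601810.
Crtc3 element at 13.7 kb: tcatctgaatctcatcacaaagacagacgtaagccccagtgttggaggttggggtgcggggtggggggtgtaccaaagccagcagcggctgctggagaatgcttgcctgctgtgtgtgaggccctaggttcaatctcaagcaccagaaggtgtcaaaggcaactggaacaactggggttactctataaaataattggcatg
Crtc3 element at 50.5 kb: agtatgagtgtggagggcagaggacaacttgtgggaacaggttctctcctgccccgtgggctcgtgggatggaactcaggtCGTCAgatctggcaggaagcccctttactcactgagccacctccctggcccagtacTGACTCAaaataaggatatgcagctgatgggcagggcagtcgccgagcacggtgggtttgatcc
Creb1 element at 69.0 kb: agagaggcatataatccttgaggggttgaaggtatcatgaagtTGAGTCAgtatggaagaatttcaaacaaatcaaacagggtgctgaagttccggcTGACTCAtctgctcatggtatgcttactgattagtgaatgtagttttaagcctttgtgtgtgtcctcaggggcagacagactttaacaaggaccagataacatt
The first holds none of the motifs. The next holds 1 CRE core and 1 AP-1 match, of which 1 lies in bases that the genome file masks as repeats; 46.8% of this window is masked. The Creb1 element holds 2 AP-1 matches and no masked base. Over the summit windows of all regions away from a start, 6.21% hold a CRE core, 6.11% an AP-1 match and 0.163% a full CRE, and the median share of masked bases is 15.9%. Of the other regions called in 2 or more libraries in these windows, Crem left aside, the Crtc2 promoter held a CRE core around its summit, the exon 15 element of Crtc3 an E-box and the D730003I15Rik promoter 2 E-boxes.

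Over the 697042 bp of the 9 windows, called peaks covered 19977 and 32701 bp (LP), against 33318 and 40342 bp (HP). LP 2 and HP 1 were close together. The HP mean was 1.40 times the LP mean, against 1.54 genome-wide. Without LP 2 the ratio rose to 1.84, and without LP 1 it was 1.13. Peak numbers in the windows were 34 and 52 (LP), against 43 and 48 (HP), so the populations overlapped in number.

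The wider pathway was read from 4 lists of genes, by their main promoters. Of 15 other ATF and CREB family factors, 11 had a promoter region in all 4 libraries, and 0 passed limma at an adjusted p of 0.05 (2.54% of all promoters), with 5 at an unadjusted p below 0.05 (36.2% of all regions). Their median log2 ratio was 0.86, against 0.90 over all promoters, from −0.21 at Crebrf, a regulator of CREB3 turnover, to 1.39 at Creb3, a factor tethered in the endoplasmic reticulum. Crebrf had 30.2 and 9.77 (LP), against 10.4 and 21.0 (HP), and so, like Atf1, was highest in LP 1. Of 6 coactivators and salt-inducible kinases, all 6 had a promoter region in all 4 libraries and 0 passed (1 at an unadjusted p below 0.05), with a median of 0.66, from 0.28 at Crebbp, which encodes CBP, to 1.43 at Crtc1, the third CRTC gene.

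Crtc1 had 3.14 and 3.58 (LP), against 9.14 and 8.98 (HP) (adjusted p = 0.0765, limma). Its populations did not overlap and its replicates lay close together, as those of Crtc3 did at a smaller ratio. The ratios of the 3 CRTC promoters were not tested against each other.

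Of 22 genes of cAMP and protein kinase A signalling, 17 had a promoter region in all 4 libraries, with a median of 0.91 against 0.90 over all promoters, and 1 passed the test, beside 2.54% of all promoters. This was Pde4a, a phosphodiesterase that breaks down cAMP, with 0.610 and 1.17 (LP), against 2.70 and 3.86 (HP) (log2 1.93, limma adjusted p = 0.0391; 0.0528 with replicate as a block). The LP 1 value of Pde4a, 0.610, was low: the lowest call in LP 1 was 0.436, and its median over all regions away from a start was 0.610. The lowest ratio of this list was that of Prkar2a, a regulatory subunit of protein kinase A, at 0.21. Of 21 known CREB target genes, 18 had a promoter region in all 4 libraries, with a median of 0.81, and 1 passed (2.54% of all promoters). This was Per1, a clock gene that CREB induces, with 1.74 and 1.30 (LP), against 4.44 and 6.45 (HP) (log2 1.83, limma adjusted p = 0.0420; 0.0552 with the block). The lowest was Bcl2, a survival gene, at 0.32. Neither Pde4a nor Per1 passed after the libraries were centred (log2 0.92 and 0.82) or quantile normalized (0.93 and 0.80; adjusted p = 1.000 in each). No gene of the 4 lists was lower in HP past the threshold. Without LP 1, LP 2, HP 1 and HP 2 in turn, the limma adjusted p of Pde4a was 0.425, 0.268, 8.50e-04 and 0.151, at log2 ratios of 1.46, 2.40, 2.19 and 1.67. That of Per1 was 0.425, 0.343, 0.00125 and 0.182, at ratios of 2.04, 1.62, 2.10 and 1.56. Each of these fits leaves 1 library in a population, and its spread comes from the other pair alone.

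The promoters whose 4 values were most like those of Atf7, the gene with the highest ratio over all 4 libraries, were Cntrl, Tarbp2 and Sspn, with Euclidean distances of 0.224, 0.234 and 0.239 over the 4 log2 scaled pileups, among 9832 genes. Cntrl had 5.06, 4.75, 8.36 and 14.7 in LP 1, LP 2, HP 1 and HP 2.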

How the data were processed

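H3K27ac ChIP-seq of B16 F10 cells was analysed, with 2 LP and 2 HP libraries grouped by their labels and 2 IgG libraries of unsorted cells used by the authors as controls. Per the labels, cells were fixed in 1% formaldehyde for 10 minutes (the paper gives another strength) and libraries had 5 to 7 PCR cycles. The authors' processing notes name bcl2fastq 2.20, Trimmomatic 0.33, Bowtie2 2.5.1 and mm10. Narrow peaks were called by the authors per library (MACS 3.0.0b1, duplicates kept, q-value cutoff 0.05). The deposited pileup is an unscaled signal, the coverage in whole fragments at the summit; the authors' fold enrichment is a ratio to the local background, and their −log10 q-values were used to describe and filter. The deposited score column, 10 times the authors' −log10 q-value as a whole number, was not used. Fragment lengths, 167 and 217 bp (LP) against 184 and 192 bp (HP), enter the pileup.

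Pileups were scaled per 1000000 fragments. Peaks overlapping by 1 bp were merged over libraries, and each region took its highest summit. limma 3.58.1 (R 4.3.3) compared log2 scaled pileups of HP and LP over the 12084 regions called in all 4 libraries, with Benjamini-Hochberg adjustment over them; the prior degrees of freedom were infinite, so the variance is pooled. The test and the merging were tested on simulated data. Regions were placed with GENCODE transcripts for GRCm38, and sequences were read from RefSeq promoters and GRCm38.p6 with samtools 1.23.1. Python 3.11.15 and pandas 2.3.3 were used.

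Replicate numbers mark replicate sets with equal starting DNA per the labels, so they pair the samples; differences between replicates had a correlation of 0.0153 between LP and HP over regions. A replicate block was tried as one of the alternatives, beside other scalings, cutoffs, overlaps, windows and leaving out libraries. Named regions are the main promoter of each gene, other regions called in all 4 libraries and regions called in both libraries of one population and neither of the other; of each pathway list, those past the threshold, the highest and the lowest ratio are named. Crtc1, Crebrf and the sequences shown follow the lists or were picked after values were seen. The members and lists were chosen with earlier results of these data known. A region not called has no value, and counts of fragments cover counting error only.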

Additional observations from a re-analysis of the deposited data

How the results depend on the processing

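Elements rested on few fragments, and 2 libraries per population limit each ratio. Over the 12084 regions called in all 4 libraries, 485 passed the limma test, and 88 with the replicate block. After centring 0 passed (177 higher and 275 lower at an unadjusted p below 0.05). After quantile normalization (227 and 207) and with mean summits (3253 and 0) it was also 0. Leaving out 1 library gave 0 to 6930, with 6930 without HP 1 and 0 without LP 1, LP 2 or HP 2 (1083, 1722 and 2015 higher at an unadjusted p below 0.05); the spread in these fits comes from the remaining pair alone, and the lone library is assumed to vary like it. Leaving out a whole replicate left 1 sample per population and no test. Among the 14 regions called in all 4 libraries at the 9 genes, 0 passed under every scaling, cutoff, overlap and block, and 0 to 5 when a library was left out.

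The median ratio of the 9 promoters, 0.60, turned to −0.41 after centring and −0.20 after quantile normalization; when libraries or replicates were left out it ran from 0.05 to 1.29. After centring the log2 ratios turned at Atf1 (−0.91), Atf2 (−0.08), Atf3 (−0.75), Atf5 (−0.55), Creb1 (−0.34), Crem (−0.47), Crtc2 (−0.41), Crtc3 (−0.16), D730003I15Rik (−0.46) and Dennd4b (−0.14), and after quantile normalization at Atf1 (−0.45), Atf3 (−0.80), Atf5 (−0.20), Crem (−0.34), Crtc2 (−0.30) and D730003I15Rik (−0.23). Leaving out libraries or replicates gave ratios from −0.92 to 1.12 at Atf1, 0.28 to 1.58 at Atf2, −0.22 to 0.74 at Atf3, −0.49 to 1.41 at Atf5, 0.80 to 1.84 at Atf7, 0.05 to 1.29 at Creb1, −0.22 to 1.30 at Crem, 0.23 to 0.98 at Crtc2, 0.62 to 1.09 at Crtc3, −0.08 to 1.18 at D730003I15Rik and −0.10 to 2.41 at Slc39a1. Of 168 values of the 14 regions under alternatives, 137 kept their direction and side of the threshold, 5 newly passed it, all without HP 1, and 26 turned. The 10 turns under centring follow from lowering every ratio by 1.01, and the cause of the rest was not tested.

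Regions called in both HP and neither LP library numbered 3, and 2 at a q-value of at most 0.001 or with peaks merged at 100 bp; leaving out libraries gave 3 to 25, and 24.5 was the mean within replicate pairs, the replicate block for this count. Regions called in both LP and neither HP library numbered 0, then 0 to 26 and 21.5. These counts rise because fewer lists have to agree. The covered length ratio, 1.40, ran from 1.13 to 1.84 when libraries were left out. The replicate block changed no other call at the 9 genes.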
